A study of Caenorhabditis elegans with 2 samples.

Results

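The protein genes of the large subunit of the cytosolic ribosome were taken as every protein-coding gene whose Ensembl name (WBcel235, release 115) starts with rpl- or rla-. The rule gave 50 of the 19973 protein-coding genes on the 6 chromosomes of Caenorhabditis elegans. By the RefSeq product names, matched through WormBase gene identifiers, 48 of the 50 encode proteins of the large subunit. The other two carry the name only: rpl-24.2 is given as a putative ribosome biogenesis protein (RLP24) and rpl-42 as a NAM-associated domain-containing protein. A gene was counted as having a peak when the summit, the highest point of a peak, lay within a promoter window that ran from 1000 bp before the annotated gene start to 200 bp past it.

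The peaks came from ChIP-seq, in which chromatin is precipitated through 1 of its proteins and the DNA that comes with it is sequenced. The protein was NHR-11, a nuclear hormone receptor, carried with an eGFP tag by a transgene inserted in strain OP305, whose genotype is given as unc-119(ed3) III; wgIs305, and the antibody is listed as nhr-11. Whole L4 larvae of both sexes were used, in 1 group of 2 biological replicates, so signal from different tissues is summed. No other genotype, stage or control precipitation was analysed here, so peaks particular to NHR-11 and peaks that any tagged factor would give cannot be told apart. The ce11 lists were used: the pooled list of both replicates (13558 peaks), the thresholded list of the peaks that passed the authors' irreproducible discovery rate (IDR) step (2719), and the list of replicate 1 (19074) and of replicate 2 (22137). The pooled and replicate lists were made as input for that step and hold background as well as peaks by their own description, so a weak summit in them is not evidence of binding. Signal is the value that the authors' peak caller gave each peak, on a scale that is not stated, and it is compared only within a list. The lowest thresholded signal was 54.9 and the highest 1107.6. Read counts are not in the lists, so the depth of the libraries is unknown, and with 1 group no test between conditions was possible. Intervals are exact 95% Clopper-Pearson intervals over genes or peaks, and neighbouring genes and peaks are not independent.

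The large subunit holds the peptidyl transferase centre, where amino acids are joined, and the tunnel through which the new protein leaves. Most of its proteins bind ribosomal RNA and are needed in equal amounts, and their genes are among the most highly transcribed in growing cells. In the nematode the genes lie scattered over the chromosomes. Many worm messages receive a spliced leader in place of their own first bases, so annotated starts often lie close to the start codon. The start codon lay a median of 6 bp downstream of the annotated start in the 50 genes and 15 bp in all protein-coding genes. Distances below are to the annotated start, and for a few genes the start codon lies much further on (642 bp at rpl-19).

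A thresholded summit lay in the promoter window of 37 of the 50 genes (74.0%, interval 59.7 to 85.4), against 8.28% of all protein-coding genes. In the pooled list the count was 41 (82.0%) against 25.3%. Of the 50 genes, 40 had a summit in the full list of replicate 1 (background 30.4%) and 43 in that of replicate 2 (background 33.8%). Each of the 37 had a single thresholded summit in its window. The peaks were also among the higher ones. The median signal was 161.1 (range 65.1 to 683.0, 95% interval of the median 137.3 to 182.1), against 90.2 (86.7 to 93.7) over the 1654 genes with such a summit. The median rank was 356 against 1186. Among the 25 strongest thresholded peaks were 6 of these genes (background 0.135% of all genes), among the 100 strongest 8 (0.421%), and among the 679 strongest 27 (2.64%).

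**Figure D1:**
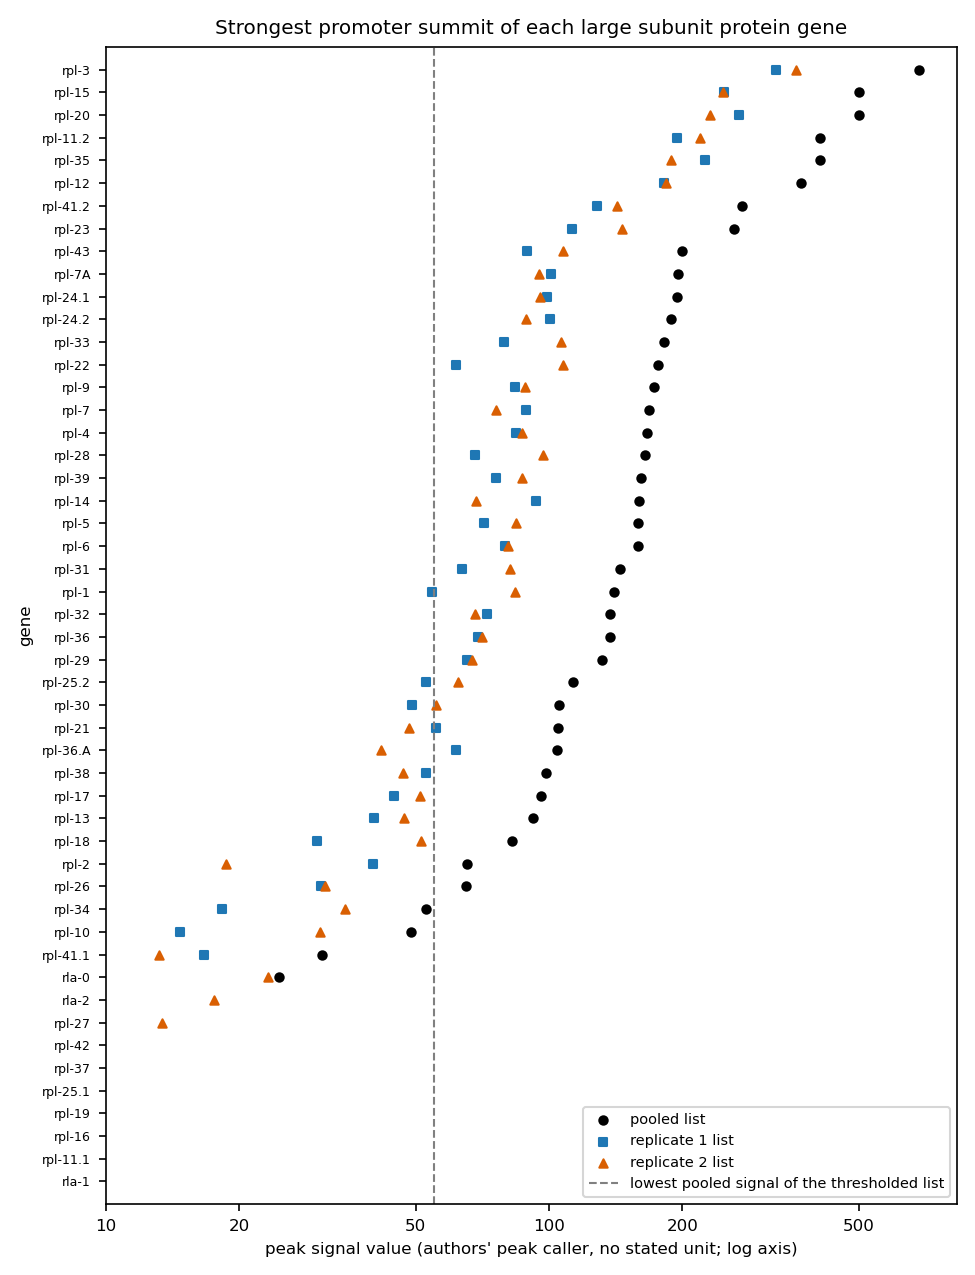
Signal (log axis, no stated unit) of the strongest promoter summit of each of the 50 genes in the pooled list (black circles), the replicate 1 list (blue squares) and the replicate 2 list (orange triangles). The dashed line is the lowest signal of the thresholded list, 54.9, and applies to the pooled values alone. The 37 genes with a thresholded summit lie to its right with pooled signals from 65.1 to 683.0, and a gene with no marker had no summit in that window in these lists.

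Sequences of 101 bases, 50 either side of a summit, are printed below in the direction of the gene, from the RefSeq WBcel235 assembly, whose sequence is that of ce11. They are shown for the strongest peaks, for windows that hold several of the short sequences the genes shared, and for paralogues without a peak. Capitals mark 7 such elements, counted on both strands. Element 1 is CGAGACCC, element 2 ACCGTAGT, element 3 ATACTCAG, element 4 AACGAGTG, element 5 AAAGGCGC, element 6 GGCCTAAA and element 7 AAGTGTA. They were chosen from these same windows, as described with their shares below, so a match is a description of the letters and not a binding site. For the same reason, their absence at a paralogue without a peak is no finding. Over the whole promoter window, elements 1 and 6 were each in 2 of the 13 genes without a thresholded summit (15 of the 37 with one). Elements 2, 4 and 5 were each in 1 of the 13 (10, 9 and 9 of the 37). Elements 3 and 7 were each in 0 of the 13 (8 of the 37).

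Of the genes for proteins near the peptidyl transferase centre, rpl-3 (protein uL3) had the highest peak of all 50. Its pooled signal was 683.0, rank 3 of the thresholded list, with 325.7 in replicate 1 (rank 3) and 361.0 in replicate 2 (rank 4). The summit lay at 3867584 on III, 270 bp upstream of the start. A weaker pooled summit lay 897 bp upstream, with a signal of 35.1. At rpl-2 (uL2, RefSeq name rpl-8) the pooled signal was 65.2, with 40 in replicate 1 (rank 1482) and 18.7 in replicate 2 (rank 5511). At rpl-10 (uL16), which helps shape the centre late in assembly, no summit was thresholded. Its pooled signal was 48.9 (rank 3268) at 389 bp upstream, with 14.7 in replicate 1 and 30.5 in replicate 2, so the peak stood in both replicates but below the threshold. The windows of the strongest gene and of the weak rpl-2 peak (chrIII:3867534-3867634 and chrV:20479262-20479362, both on the plus strand) show element 7 in the first and elements 5 and 1 in the second:
rpl-3: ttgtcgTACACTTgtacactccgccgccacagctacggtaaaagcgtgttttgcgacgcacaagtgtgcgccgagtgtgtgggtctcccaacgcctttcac
rpl-2: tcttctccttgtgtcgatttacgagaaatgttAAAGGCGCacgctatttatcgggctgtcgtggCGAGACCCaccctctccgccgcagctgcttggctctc

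The proteins uL18 and uL5, which bind the 5S ribosomal RNA, are encoded by rpl-5 and by the pair rpl-11.1 and rpl-11.2. The pair differed. At rpl-11.2 the pooled signal was 408.4 (rank 17), with 194.3 in replicate 1 (rank 20) and 219.6 in replicate 2 (rank 15), and the summit lay at 2242973 on X, 355 bp upstream. At rpl-11.1 no summit lay in the window in any of the 4 lists, and the nearest thresholded summit was 6067 bp downstream, in an intron of pygl-1. The coding sequences of the pair, 588 bases each, were 84.2% identical. At rpl-5 the pooled signal was 159.1, with 71.4 and 84.3 in replicates 1 and 2, at 404 bp upstream. The window of rpl-11.2 (chrX:2242923-2243023, minus strand) holds elements 4 and 2 separated by 2 bases, and the window of rpl-11.1 at the same distance from its own start (chrV:3586369-3586469, minus strand) holds none of the 7:
rpl-11.2: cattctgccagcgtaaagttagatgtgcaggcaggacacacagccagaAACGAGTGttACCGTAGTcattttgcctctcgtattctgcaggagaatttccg
rpl-11.1: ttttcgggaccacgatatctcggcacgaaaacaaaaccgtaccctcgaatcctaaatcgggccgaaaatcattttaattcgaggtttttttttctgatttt

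None of the 3 rla- genes had a thresholded summit, and 3 genes are too few to set against the 74.0% of all 50. They encode proteins of the P stalk that recruits translation factors to the ribosome. The gene for uL11, which lies at the base of the stalk, is rpl-12, and it had a strong summit. For rpl-12 the pooled signal was 369.9 (rank 24), with 182.1 in replicate 1 (rank 23) and 184.0 in replicate 2 (rank 33). Its summit, at 13240686 on IV, lay 35 bp upstream of the annotated start, the shortest such distance of the 37 although the start codon lies 91 bp further on, and 358 bp from the start of lin-54 on the other strand. For rla-0 (uL10), which holds the stalk to the ribosome, a pooled summit 210 bp upstream had a signal of 24.6 (rank 10289 of 13558), and replicate 2 alone gave a summit, of 23.2. For rla-2 (P2) the only summit was in replicate 2, with a signal of 17.6 at 206 bp upstream. For rla-1 (P1) there was no summit in the window in any list. The stalk on the other side of the subunit, formed with uL1, is represented by rpl-1, whose pooled signal was 140.4, with 54.5 and 84.0 in the replicates. The window of rpl-12 (chrIV:13240636-13240736, minus strand) was the only one among the 6 strongest with none of the elements:
rpl-12: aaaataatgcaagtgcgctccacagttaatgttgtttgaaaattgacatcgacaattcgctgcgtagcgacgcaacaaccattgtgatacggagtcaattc

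Around the exit tunnel, 7 of 9 genes had a thresholded summit, a share near the 74.0% of all 50, with signals from 65.1 to 407.8. The highest was rpl-35 (uL29), with 407.8 (rank 18), 224.5 in replicate 1 (rank 16) and 188.0 in replicate 2 (rank 28), and a summit at 7854686 on III, 448 bp upstream. Next came rpl-4 (uL4), which lines the tunnel, with 166.6, then rpl-39 (eL39), which also lines it, with 161.1, and rpl-31 (eL31) with 144.9. For rpl-25.2 (uL23) the pooled signal was 113.3, with 52.9 and 62.2 in the replicates, for rpl-17 (uL22) it was 95.7, and for rpl-26 (uL24) 65.1, the lowest of all 37. The uL23 genes are a second pair that differed, since rpl-25.1 had no summit in its window in any list, with 69.9% identity in the coding sequence. For rpl-19 (eL19) the window was also empty in all 4 lists. A thresholded summit of signal 102.5 lay 371 bp downstream of its start, in an intron of rpl-19 itself. The gene has 2 annotated transcript starts, its nearest start codon lies 642 bp downstream of the first, and when every transcript start was used rpl-19 was gained, which made 38 of 50 genes against 9.11% of all genes. The windows of rpl-35 (chrIII:7854636-7854736, plus strand), rpl-39 (chrV:7776310-7776410, minus strand) and, at the distance of its paralogue's summit, rpl-25.1 (chrX:4714974-4715074, plus strand) show element 7, elements 3 and 1, and no element:
rpl-35: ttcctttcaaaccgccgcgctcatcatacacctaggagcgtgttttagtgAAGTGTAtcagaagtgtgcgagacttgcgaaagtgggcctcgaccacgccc
rpl-39: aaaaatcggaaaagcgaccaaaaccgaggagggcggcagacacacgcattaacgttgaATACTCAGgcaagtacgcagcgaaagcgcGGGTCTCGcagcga
rpl-25.1: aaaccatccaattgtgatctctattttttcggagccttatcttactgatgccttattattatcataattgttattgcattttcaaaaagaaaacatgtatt

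Of the remaining structural proteins, rpl-15 (eL15) and rpl-20 (eL20) had the next highest peaks after rpl-3. For rpl-15 the pooled signal was 500.3 (rank 10), with 248.4 in replicate 1 and 246.5 in replicate 2 (rank 12 in both), at 654919 on IV, 343 bp upstream. For rpl-20 it was 499.6 (rank 11), with 267.7 in replicate 1 (rank 9) and 230.2 in replicate 2 (rank 13), at 4750064 on IV, 286 bp upstream. The order of these 2 peaks changed between the replicates, with rpl-20 the higher in replicate 1 and rpl-15 in replicate 2. For rpl-23 (uL14), which faces the small subunit, the pooled signal was 261.3 (rank 87), with 112.4 and 146.3 in replicates 1 and 2, at 299 bp upstream. For rpl-43 (eL43) it was 199.2 (rank 207), with 89.4 and 107.7. For rpl-7A (eL8) it was 195.3 (rank 219), with 101.2 and 94.9, at 63 bp upstream. All 3 ranked 288 or better in both replicates. The windows of rpl-15 (chrIV:654869-654969), rpl-20 (chrIV:4750014-4750114) and rpl-7A (chrIV:4390603-4390703), all on the minus strand, show elements 2 and 7 in the first, element 7 in the second and elements 5, 3 and 6 in the third:
rpl-15: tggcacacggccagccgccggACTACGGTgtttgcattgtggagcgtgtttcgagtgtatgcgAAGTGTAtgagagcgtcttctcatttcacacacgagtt
rpl-20: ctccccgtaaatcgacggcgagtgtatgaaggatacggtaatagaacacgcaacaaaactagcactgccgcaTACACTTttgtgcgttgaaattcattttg
rpl-7A: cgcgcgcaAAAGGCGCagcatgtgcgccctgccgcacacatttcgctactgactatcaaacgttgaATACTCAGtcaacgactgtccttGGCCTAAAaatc

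The eL24-type and eL41 pairs complete the paralogues whose Ensembl names differ only in the digit after the point. Paralogues under other names were not paired here. By RefSeq product, C37A2.7 encodes P2, as rla-2 does. Both eL24-type genes had a peak: rpl-24.1 (eL24) had a pooled signal of 194.2 (rank 224) with 98.9 in replicate 1 and 95.2 in replicate 2, and rpl-24.2, the biogenesis factor, 188.1 (rank 241) with 100.4 and 88.8. Their coding sequences were 50.6% identical. The rpl-24.2 summit, 163 bp upstream, was the only one of the 37 inside an intron, that of C03D6.1 on the other strand. The eL41 genes, which encode a very short peptide, lie side by side in the same direction on I, and their coding sequences of 66 bases were 98.5% identical. At rpl-41.2 the pooled signal was 273.1 (rank 77), with 128.2 in replicate 1 and 142.1 in replicate 2, at 252 bp upstream. At rpl-41.1 the 2 pooled summits had signals of 30.7 and 29.7, at 16 and 772 bp upstream, and neither was thresholded. The summits of both genes lay outside the coding sequence.

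The other genes with a thresholded summit had pooled signals between 82.5 and 182.1. In falling order they were rpl-33 (182.1), rpl-22 (176.0), rpl-9 (172.9), rpl-7 (168.3), rpl-28 (164.7), rpl-14 (159.2), rpl-6 (159.0), rpl-32 (137.3), rpl-36 (137.0), rpl-29 (131.4), rpl-30 (105.5), rpl-21 (104.8), rpl-36.A (104.2), rpl-38 (98.7), rpl-13 (92.2) and rpl-18 (82.5). The replicates did not keep this order throughout. For rpl-22 the ranks in replicates 1 and 2 were 677 and 180, and for rpl-14 they were 255 and 565, so the order of these 2 genes was reversed. The genes with a thresholded summit were spread over all chromosomes, with 12 of 17 on I, 7 of 9 on II, 7 of 9 on III, 6 of 8 on IV, 4 of 5 on V and 1 of 2 on X.

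Of the 13 genes without a thresholded summit, 4 had a pooled one: rpl-34 (52.8), rpl-10 (48.9), rpl-41.1 (30.7) and rla-0 (24.6). For rpl-34 (eL34) the signal was just under the lowest thresholded value of 54.9, with 18.3 in replicate 1 and 34.6 in replicate 2, and the summit lay 391 bp upstream. At rla-2 and rpl-27 (eL27) a summit appeared in replicate 2 alone, and the rpl-27 one, of 13.4, lay 736 bp upstream. In the other 7 genes (rla-1, rpl-11.1, rpl-16, rpl-19, rpl-25.1, rpl-37 and rpl-42) the window was empty in all 4 lists. The gene rpl-37 (eL37) lies within pitp-1, on the opposite strand, and its nearest thresholded summit was 23265 bp away. The gene rpl-42, which is not a ribosomal protein gene by its RefSeq product, had its nearest thresholded summit 4847 bp away, at rpl-36.A. Past the end of rpl-27, 718 bp downstream of its start, lay a thresholded summit of 269.5 that was 60 bp from the start of egl-30.

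The summits stood in a narrow band upstream of the genes. The median distance to the start was 299 bp (95% interval of the median 272 to 343), with quartiles of 264 and 356, against a median of 254 bp and quartiles of 138 and 456 over all 1654 genes with a thresholded summit. Between 200 and 450 bp upstream lay 31 of the 37 summits (83.8%, interval 68.0 to 93.8), against 35.5% of all such genes. The 5 within 200 bp belonged to rpl-12 (35 bp), rpl-7A (63), rpl-25.2 (154), rpl-24.2 (163) and rpl-18 (194), and the 1 beyond 450 bp to rpl-43 (738). None lay downstream of the start, against 4.90% of all such genes. For rpl-43 the annotated start is the first base of the start codon, so no untranslated leader is annotated there. Of the 37 summits, 30 were intergenic, 6 lay in genes annotated as noncoding and 1 in an intron. The genes themselves were short, with a median length of 754 bp against 2027 bp for all protein-coding genes.

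**Figure D2:**
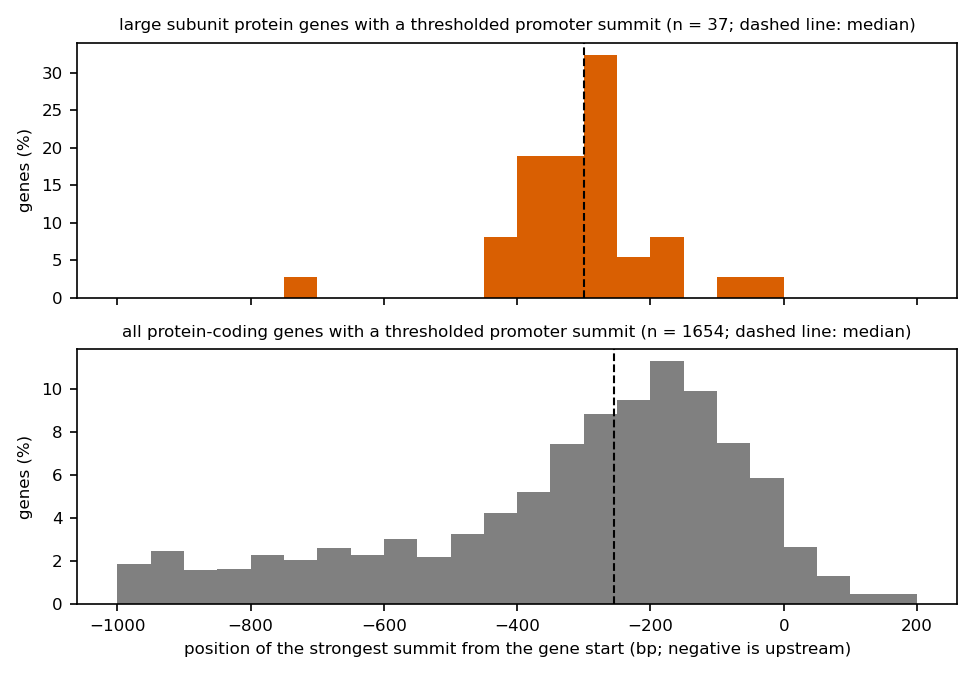
Position of the strongest thresholded summit relative to the gene start (bp, negative values upstream) as a percentage of genes in bins of 50 bp, for the 37 large subunit protein genes (top) and for all 1654 protein-coding genes with such a summit (bottom). The dashed medians stand at 299 and 254 bp upstream, and 31 of the 37 lie between 200 and 450 bp upstream.

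Most of these summits were shared with a neighbour. For 24 of the 37 genes (64.9%, interval 47.5 to 79.8) the summit also lay in the window of a protein-coding gene on the opposite strand, against 42.8% of all genes with a thresholded summit. In 15 of the 24 the summit was nearer to the partner's start. At rpl-30 (eL30) it lay 6 bp from the start of pab-1, which encodes a poly(A)-binding protein, and 372 bp from its own. At rpl-31 it lay 12 bp from sac-2 and 293 bp from rpl-31. Both ends of 3 shared summits were ribosomal: rpl-24.1 with rps-10, rpl-36 with rps-14, and rpl-39 with rps-30 each share a summit with a small subunit protein gene. At rpl-28 (eL28) the partner was mrpl-49, of the mitochondrial ribosome, and at rpl-9 (uL6) it was lpd-7, a ribosome assembly gene. A peak list cannot assign such a summit to 1 of its genes. When each summit was given only to the nearest protein-coding start, 22 of the 50 genes (44.0%, interval 30.0 to 58.7) kept one, against 6.28% of all genes.

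**Figure D3:**
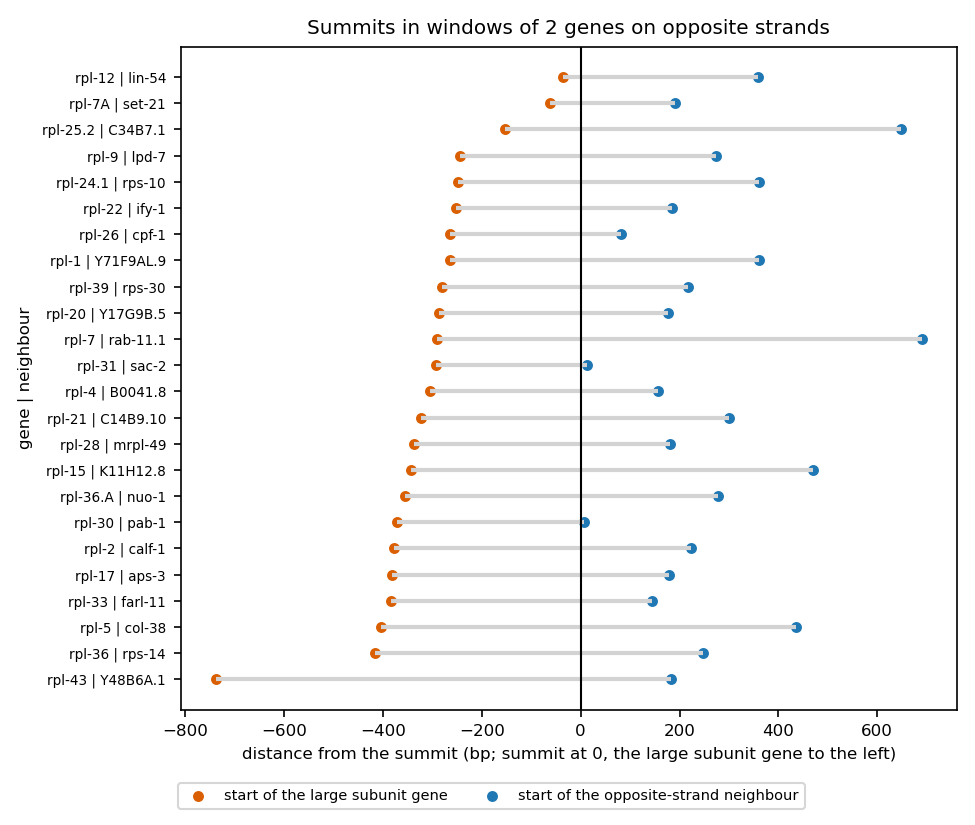
For each of the 24 summits in the windows of 2 genes on opposite strands, the distance in bp from the summit (0) to the start of the large subunit protein gene (orange, to the left) and to the start of its neighbour (blue, to the right). The rpl-30 and rpl-31 summits lie 6 and 12 bp from the neighbour's start, and 15 of the 24 are nearer to the neighbour.

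Worm genes can be arranged in operons, where genes in the same direction are transcribed together from the promoter of the first. Operons are not annotated in the reference used here, so the distance to the gene upstream was used instead, with a limit of 500 bp chosen after the data were seen. For 5 of the 50 genes a gene on the same strand ended within 500 bp upstream. None of the 5 had a thresholded summit (interval 0.0 to 52.2%). This count cannot be told apart from the background of 5.07% of 4102 genes so placed. The 5 were rla-1 (gap 105 bp), rpl-16 (105), rpl-19 (364), rpl-25.1 (97) and rpl-27 (119). Of the other 45 genes, 37 had one (82.2%, interval 67.9 to 92.0; background 9.11% of 15871 genes). The smallest such gap of a gene with a summit was 539 bp, just above the limit, and with a limit of 1000 bp 10 of 16 genes had a summit. In 4 of the 5, the first gene of the run had a thresholded summit, and the share over all first genes of such runs was not counted. Upstream of rla-1 that gene was Y37E3.8, which RefSeq gives as the large subunit protein uL15, with a signal of 74.3 at 281 bp. Upstream of rpl-16 (uL13) it was lias-1, with 110.0 at 276 bp, upstream of rpl-25.1 it was glit-1, with 169.3 at 198 bp, and upstream of rpl-27 it was C53H9.2, with 64.4 at 162 bp. The first gene above rpl-19, C09D4.9, had a pooled summit of 22.0 and no thresholded one. The Y37E3.8 summit also lay in the window of phb-1, at 464 bp, and the glit-1 summit in that of dnj-14, at 333 bp. Transcription of these runs from such promoters was not tested. Among the small subunit genes 2 of the 4 so placed had a thresholded summit of their own.

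The replicates placed these peaks alike. Of the 37 thresholded peaks, 36 (97.3%, interval 85.8 to 99.9) held a summit of the 2719 strongest peaks of both replicates, against 73.0% of all thresholded peaks, and rpl-2 was the exception. With the 2719 strongest peaks of each replicate taken alone, 37 genes had a promoter summit in replicate 1 (background 8.04%) and 38 in replicate 2 (background 8.26%). The thresholded list was made with both replicates, so this is a description. The summits of the replicates lay a median of 17 bp apart (at most 65), against 23 bp over the 2700 thresholded peaks found in both. The better rank was in replicate 1 for 17 genes and in replicate 2 for 19, with rpl-15 equal in both, and the ranks were within a factor of 2 of each other for 28. Spearman's rho of the replicate signals was 0.87 across the 37 peaks and 0.67 across the 2700, where the peaks of a replicate share its library and depth. The 37 peaks were also stronger, with a median rank of 356 against 1186 over all genes with a thresholded summit. The replicates were not compared at equal signal, so the part of peak strength in these differences was not tested.

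The sequence at the summits held short runs that recurred between genes. All 8-letter sequences within 50 bp of the summits were ranked by the excess of their share in the 37 windows over the 1263 other thresholded promoter summits, and the first 5 with no run of 5 letters in common became elements 1 to 5. Element 6 is the highest such sequence within 100 bp, and element 7 was read by eye from the strongest windows. The choice thus fixes that their shares are high here, and no test is given. Element 1, CGAGACCC, was in 14 of 37 windows (37.8%), against 3.96% of other promoter summits and 0.716% of all protein-coding genes at the same median distance of 299 bp. Element 2, ACCGTAGT, was in 8 (21.6%), against 1.19% and 0.345%. Elements 3, 4 and 5 were each in 7 windows (18.9%). For element 3, ATACTCAG, the shares elsewhere were 0.713% and 0.185%, for element 4, AACGAGTG, 1.58% and 0.210%, and for element 5, AAAGGCGC, 2.22% and 0.806%. At least 1 of elements 1 to 5 stood in 27 of the 37 windows (73.0%) and in 7.92% of the other summits, and at least 2 stood in 13 windows and in 1.50%. Of the 27 small subunit windows, 3 are also windows of large subunit genes and the other 24 were among the 1263 that the ranking was set against, so none is independent of the choice. In those 24 at least 1 of elements 1 to 5 was present in 14 (58.3%).

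**Figure D4:**
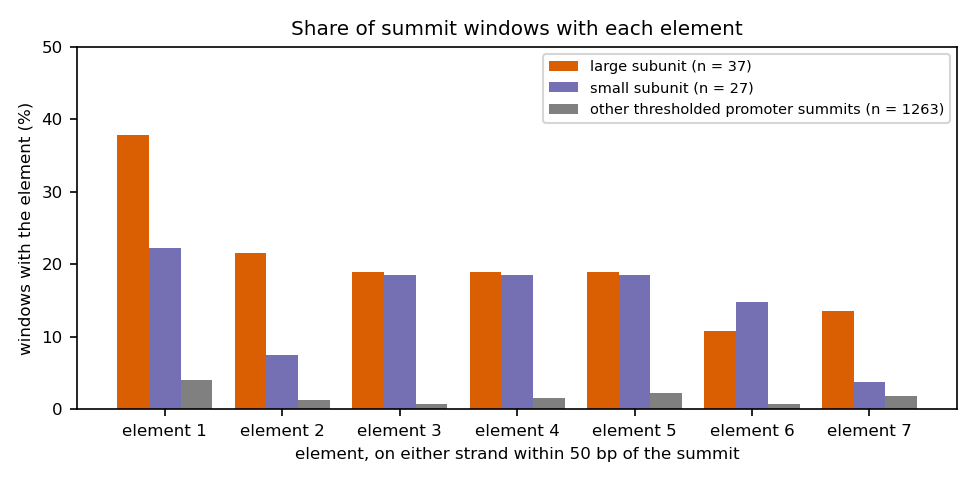
Percentage of summit windows (50 bp either side, both strands) with each of the 7 elements in the 37 large subunit windows (orange), the 27 small subunit windows (purple) and the 1263 other thresholded promoter summits (grey, small subunit windows included unless shared). Element 1 reaches 37.8% in the large subunit and 3.96% in the other summits, and the elements were chosen from the orange windows.

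Some elements recurred with the same neighbour or on the same side of the summit. All 7 copies of element 4 within 50 bp ran in the direction of the gene and an eighth, at rpl-1 and 54 bp from the summit, ran in reverse, while element 1 ran forward in 4 and reverse in 10. Element 4 followed after 2 bases by ACCGTA, the first letters of element 2, was found in 6 windows (rpl-11.2, rpl-21, rpl-22, rpl-24.1, rpl-29 and rpl-6). Its share was 1.03% at other promoter summits, and it was in 5 of the 27 small subunit windows. All of element 2 followed at this spacing only at rpl-11.2, rpl-22 and rpl-6. The pair, its spacing and its length were read from these windows, so a high share here follows from the choice. Element 6, GGCCTAAA, was in 4 windows within 50 bp but in 13 (35.1%) within 100 bp, against 1.50% of the other summits. Of its 14 matches there, 13 lay on the gene's side of the summit, a median of 71 bp from it and 266 bp upstream of the start. The rpl-6 window had elements 1 to 4, the most of any. These windows of rpl-6 (chrIII:7208072-7208172), rpl-22 (chrII:5055314-5055414) and rpl-29 (chrIV:13881903-13882003), all on the plus strand, show element 4 and, after 2 bases, element 2, which in rpl-29 is broken after ACCGTA and so is not in capitals:
rpl-6: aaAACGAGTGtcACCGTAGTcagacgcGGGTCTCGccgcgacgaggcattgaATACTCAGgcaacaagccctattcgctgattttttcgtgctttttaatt
rpl-22: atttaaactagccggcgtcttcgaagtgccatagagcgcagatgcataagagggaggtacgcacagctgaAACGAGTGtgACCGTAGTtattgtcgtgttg
rpl-29: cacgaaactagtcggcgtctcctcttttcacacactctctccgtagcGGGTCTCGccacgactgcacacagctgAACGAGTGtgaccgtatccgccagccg

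**Figure D5:**
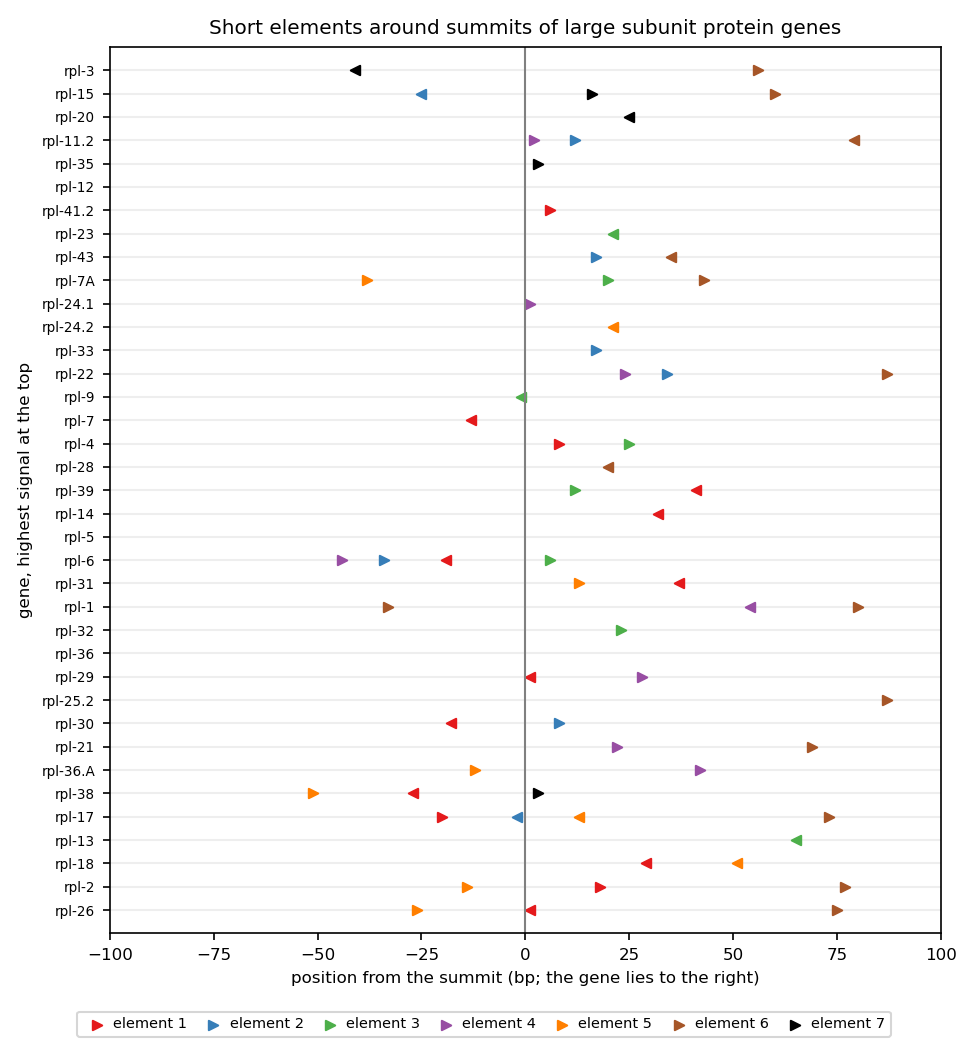
Position in bp of each element's middle relative to the summit (0), in the direction of the gene, for the 37 genes from the highest signal (top) to the lowest. Right-pointing markers are matches in the direction of the gene and left-pointing ones on the other strand, with the colour giving the element. Element 6 (brown) lies to the right of the summit in 13 of 14 matches. Element 7 (black) was chosen from the highest rows, so its presence there is no finding.

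Element 7, AAGTGTA, was in 5 windows (rpl-3, rpl-15, rpl-20, rpl-35 and rpl-38). Because it was read from the strongest windows, its place among strong peaks follows from the choice. The genes with element 1 had a median signal of 138.2 and those without it 182.1. For element 4 these medians were 159.0 and 162.9, and for element 5 they were 104.2 and 165.6. Elements 2, 3 and 6 went the other way, with 179.1, 166.6 and 180.0 in the genes with the element and 159.2, 159.1 and 159.2 in those without. The windows of rpl-5, rpl-12, rpl-13, rpl-25.2 and rpl-36 held none of the 7. A list of 12 motifs, chosen with earlier results of these data known, was also searched, on both strands. It held AGGTCA, the core site bound by many nuclear receptors, and AAGGTCA, which contains it. Also listed were the E-box sequence CACGTG, the forkhead site written GTAAACA and the cyclic AMP response element TGACGTCA. The core promoter box written TATAAA was listed with the site of GATA-type factors, which reads TGATAA, and with the longer sequence ATGATAAT that contains it. The others were the splice acceptor letters TTTCAG, the run TTTTTTT, the repeat GAGAGAG and the sequence CTGCGTC. Any of them was in 7 of the 37 windows (18.9%), against 47.3% of the other promoter summits. Within 100 bp either side the shares were 73.0% and 75.9%. The splice acceptor letters went from 5.41% at 50 bp to 37.8% at 100 bp in these genes, and from 6.18% to 17.6% at the other summits, and the run of T from 0 to 40.5%, below and then above its share at the other summits. The lower share of listed motifs was thus a feature of the closer windows. Within 50 bp no window held AGGTCA, which was in 2.22% of the other summits, and within the whole promoter window 12 of the 50 genes and 26.7% of all protein-coding genes had it. GAGAGAG and CTGCGTC were each in 1 window, against 11.5% and 11.8% of the other summits and 1.75% and 1.14% of all genes at the same distance. Because of how the list was chosen, the shares at the other summits can in part follow from that choice. The median GC content of the windows was 50.5%, as in the small subunit windows, against 46.5% at the other summits and 33.7% at all genes at the same distance. Within 100 bp either side it was 42.3%, against 42.8% at the other summits. The part of GC content in these shares was not tested.

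Small subunit protein genes (names starting rps-) had a thresholded summit in 27 of 31 cases (87.1%, interval 70.2 to 96.4), with a median signal of 152.8 and a median distance of 282 bp. Its highest peaks were at rps-12 (483.5), rps-1 (436.5), rps-19 (321.9) and rps-15 (238.7). The 2 genes listed for a ribosomal protein fused to ubiquitin or a ubiquitin-like sequence, ubl-1 (163.7) and ubq-2 (154.7), both had one. In the mitochondrial ribosome the counts were 10 of 41 large subunit genes (24.4%, interval 12.4 to 40.3) and 2 of 29 small subunit genes (6.90%, interval 0.8 to 22.8), the latter close to the 8.28% of all genes. Translation factors had 15 of 39 (38.5%), led by iff-2 (631.1), the initiation factor 5A gene, and eef-1G (345.2), eef-1A.2 (326.2) and eef-1A.1 (298.4), which encode elongation factor subunits. The list of ribosome assembly genes had 8 of 18 (44.4%). Its names were set by hand and also included RNA polymerase subunit genes (rpoa- and rpac- names) and ncl-1. Among the 8 were fib-1 (185.6), which encodes fibrillarin, lpd-7 (172.9, the summit shared with rpl-9), nol-58 (139.3) and rbd-1 (101.9). No test of these lists against each other was made. Some large subunit proteins are encoded by genes whose Ensembl name does not start with rpl- or rla-: by RefSeq product, F28A10.13 (L35) had a thresholded summit of 85.1 and Y37E3.8 (uL15) the one of 74.3, whereas C37A2.7 (P2) and T08B6.1 (L35a) had none. These were found by the wording of the product name, so further such genes may have been missed.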

How the data were processed

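The deposited files are peak lists in the narrowPeak format for ce11 and ce10, of which ce11 was used. Each list gives, per peak, the authors' signal value and a −log10 q that the authors' peak caller assigned (35 of the 37 member peaks share its maximum, so peaks were ranked by signal). Neither the aligner nor the caller, nor any version or reproducibility threshold, is named in the sources used here. Per the labels' accompanying notes, the pooled and replicate lists are input for an IDR step that includes background, and the thresholded list is its output from both replicates.

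Summits (the peak start plus the deposited offset) were assigned to genes of Ensembl release 115 from 1000 bp upstream to 200 bp downstream of the start, and a summit could count for several genes. Assignment was tested on simulated summits. As a check of the build, all 57 annotated start codons of the 50 genes read ATG in the genome, and no peak passed a chromosome's end. Shares carry Clopper-Pearson intervals (95%, scipy 1.17.1), and medians carry order-statistic intervals. Python 3.11.15, numpy 2.4.6, pandas 2.3.3, Biopython 1.88 and matplotlib 3.10.9 were used.

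The members, gene lists and motifs were chosen with earlier results of these data known. Values were to be given in full for the 12 strongest genes, every gene without a thresholded summit, the rla- genes and paralogues, with up to 4 genes of each other list by signal. Other genes named were chosen after their values were seen, as were the 7 elements, the 500 bp limit for genes on the same strand and the RefSeq check. The grouping of genes by their place in the subunit and the pairing of element 4 with ACCGTA were not planned either. Of the 19 assembly gene names, 18 were matched. The alternatives tried were other promoter windows, starts, summit positions, list sizes, replicates alone and motif windows.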

Additional observations from a re-analysis of the deposited data

How the results depend on the processing

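Giving each summit to the nearest protein-coding start alone took the genes with a thresholded summit from 37 to 22 of 50, which follows from the shared promoters. The windows with any of the 12 listed motifs went from 7 to 4 of 37 at 25 bp either side (other promoter summits 24.6%) and to 27 at 100 bp (other promoter summits 75.9%), and the cause was not tested. From each replicate alone, the count of genes with a summit was 37 to 38 for the 2719 strongest peaks and 40 to 43 for the full lists. Other promoter windows, every transcript start, peak midpoints and the stronger 1359 peaks gave 34 to 40 genes, and leaving out rpl-24.2 and rpl-42, chosen after seeing the data, gave 36 of 48. The median signal stayed between 159.2 and 170.6 and the median distance between 298 and 311 bp. At 25 bp either side the windows with elements 1, 2, 4, 6 and 7 fell from 14 to 9, 8 to 5, 7 to 3, 4 to 1 and 5 to 3 in that order, and at 100 bp those with element 6 rose to 13. With a same-strand gap under 300 bp, 0 of 4 genes had a summit, as did 0 of 5 under 500 bp and 10 of 16 under 1000 bp. No paired analysis was possible because there is 1 group and no comparison between groups. The depth of the libraries is unknown, so a gene without a called summit is not shown to be unbound.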
